A study of Mus musculus with 6 samples.

Results

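A set of 9 acute phase genes that fat tissue can transcribe was measured in mice with an extra copy of the chromosome 7 interval that matches human 15q11-13. The tissue was epididymal white adipose tissue, the visceral fat depot beside the testis. The members were the 4 serum amyloid A genes Saa1, Saa2, Saa3 and Saa4, the lipocalin gene Lcn2, the haptoglobin gene Hp, the orosomucoid genes Orm1 and Orm2, and the serine protease inhibitor gene Serpina3n. They were taken by gene name as the scanner files give it, with every probe of each gene used. They are 9 of 28902 names, accessions included, in the gene name column of the array. They had 11 of its 41174 probes, and 10 of these were among the 27975 probes bright enough to be tested. The 3 patDp/+ mice inherited the duplication from the father and were set against 3 wild type (WT) mice. All 6 mice were males on the C57BL/6 background, 9 to 10 weeks old, with no treatment named. Late onset obesity is named in the title of the series, and the comparison addresses fat at a young adult age. RNA of each mouse was hybridised to 1 one-colour Agilent array, and patDp/+ mouse 1 shared a slide with WT mouse 1, as did the mice numbered 2 and those numbered 3.

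The acute phase response is the change in circulating proteins that follows infection, injury or other inflammation. Interleukin 1, interleukin 6 and tumour necrosis factor drive it, through NF-kB, STAT3 and the C/EBP transcription factors, mainly in hepatocytes. Adipocytes and the macrophages of fat also transcribe several of these genes. In mice, Saa3 is the serum amyloid A gene best known from fat and macrophages, whereas Saa1 and Saa2 are best known from the inflamed liver, and Saa4 is made without a stimulus.

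The serum amyloid A probes lay close together and their genes resemble one another, so the sequences that define what was measured are given first. On mm9, the genome build of the scanner files, the Saa probes lay between positions 53968031 and 54009594 of chromosome 7, a stretch of 41.6 kb. The nearest probe of Herc2, which lies at one end of the duplicated interval, starts 9.34 Mb further on, so the Saa cluster is on the same chromosome but outside the interval. Saa1 had 2 probes. The contiguous one (chr7:53996070-53996129, minus strand) matched 1 unbroken stretch of genome, and the split one (chr7:53996167-53996639, minus strand) covered 473 bases of genome with 60 bases of probe, and so is placed across an intron. The Saa3 probe was at chr7:53968031-53968090 (minus strand). All probes were 60 bases long. The 3 are shown because their signals can be shared between paralogs, with capitals used for no part of them.
Saa1 contiguous probe: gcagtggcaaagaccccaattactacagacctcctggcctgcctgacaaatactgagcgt
Saa1 split probe: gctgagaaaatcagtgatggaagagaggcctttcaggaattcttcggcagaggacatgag
Saa3 probe: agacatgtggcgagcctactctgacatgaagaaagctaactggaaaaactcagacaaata

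No 2 probes of different Saa genes shared a run of more than 8 identical bases. The 2 probes of Saa1 itself shared a run of only 5. Runs between probes therefore do not tell whether a probe matches the transcript of a paralog. The scanner files assign the Saa3 probe to transcripts of both Saa1 and Saa3, and 1 Ensembl transcript is listed for the Saa3 probe and for both Saa1 probes. RefSeq lists Saa1 and Saa2 as older names of each other. Signal of Saa1, Saa2 and Saa3 is therefore given by probe, and how far the transcripts of the paralogs cross-hybridise was not analysed here. Saa2 was read by a single probe at chr7:54009535-54009594 (plus strand) and Saa4 by probes at chr7:53984760-53984819 and chr7:53983662-53983721 (minus strand).

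Orm1 and Orm2 form a second cluster, with probes between positions 63006483 and 63025038 of chromosome 4 (mm9), 18.6 kb apart end to end. The Orm1 probe (chr4:63006483-63007090, plus strand) covered 608 bases of genome and so is also placed across an intron. The Orm2 probe (chr4:63024979-63025038, plus strand) was contiguous. Both are shown because the values of these genes moved together, and their longest shared run was 7 bases. That run does not tell whether either probe also reads the transcript of the other gene, which was not analysed here.
Orm1 probe: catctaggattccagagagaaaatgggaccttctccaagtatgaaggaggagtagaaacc
Orm2 probe: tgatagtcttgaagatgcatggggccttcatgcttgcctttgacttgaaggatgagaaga

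The remaining genes had 1 probe each. The Lcn2 probe lay at chr2:32241037-32241281 (minus strand, covering 245 bases and so across an intron), the Hp probe at chr8:112099172-112099231 (minus strand) and the Serpina3n probe at chr12:105651918-105651977 (plus strand). Whether the contiguous probes lie in coding or untranslated exon sequence was not analysed here.

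Levels below are processed intensities on a log2 scale, set relative to the 75th percentile of their array, so that 0 is the 75th percentile and 1 unit is a doubling. Levels of different probes are not set against each other, because probes differ in how brightly they report the same amount of RNA. Differences are patDp/+ minus WT with the standard error (SE) of limma, a linear model fitted over all tested probes. A call required a Benjamini-Hochberg adjusted p under 0.05.

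None of the 10 tested acute phase probes was called, and limma called 0 of the 27975 probes (0%), where the smallest adjusted p was 0.439. At an unadjusted p under 0.05, 2 of the 10 passed, Saa3 and Serpina3n, both higher in patDp/+ fat. Over all tested probes 5.15% passed in either direction, 2.41% as higher and 2.75% as lower in patDp/+. Saa3 was the only member whose groups did not overlap. Among all tested probes the groups were separate for 10.4%, with 4.72% higher and 5.64% lower in patDp/+. The difference was above 0 for 7 of the 10 probes, against 47.2% of all tested probes, and its median was 0.24, against -0.01 over all tested probes. This median was 0.087 without WT mouse 1 and 0.38 without WT mouse 3. When each mouse was left out in turn, Saa3 had an unadjusted p under 0.05 every time. It was the only such probe without patDp/+ mouse 1, WT mouse 1 or WT mouse 3. Saa4 joined it without patDp/+ mouse 2 or WT mouse 2, and Serpina3n without patDp/+ mouse 3. In whole tissue, more cells of a type and more RNA per cell cannot be told apart.

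**Figure D1:**
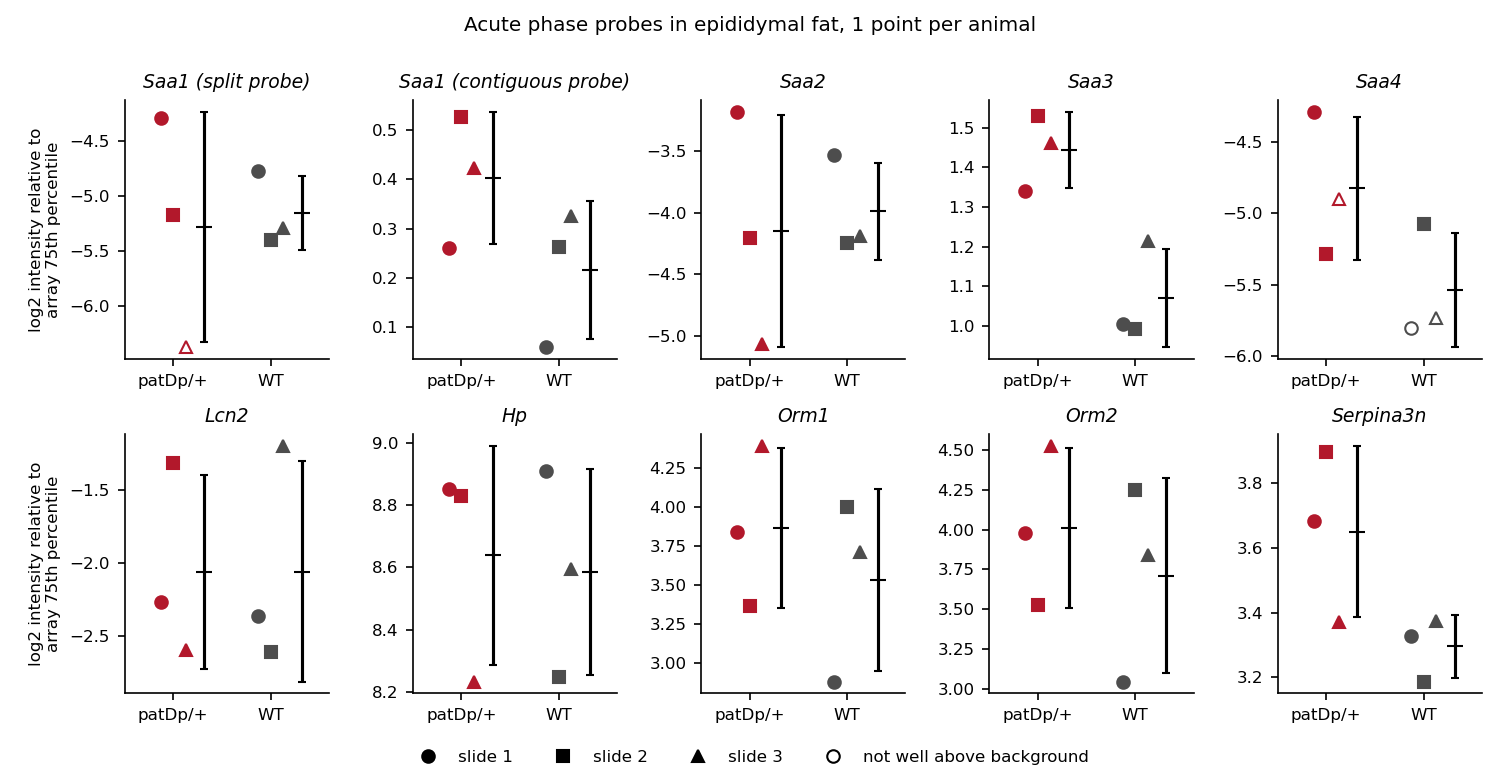
Each point is 1 mouse, with the log2 intensity relative to the array's 75th percentile on the vertical axis, patDp/+ on the left and WT on the right of each panel, marker shape for the slide and bars for the mean ± SD (n = 3 each). The axes start at different values. The groups separate for Saa3 only, where the patDp/+ mice sit between 1.34 and 1.53 and the WT mice between 0.99 and 1.21.

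Saa3, the serum amyloid A of mouse adipocytes and macrophages, read 1.34, 1.53 and 1.46 in patDp/+ mice 1, 2 and 3, against 1.00, 0.99 and 1.21 in WT mice 1, 2 and 3. All 3 patDp/+ values lay above all 3 WT values, and the narrowest gap was between patDp/+ mouse 1 and WT mouse 3. The means were 1.44 ± 0.10 in patDp/+ and 1.07 ± 0.12 in WT fat (SD, n = 3 each). The difference was 0.37 ± 0.10 (SE, 95% interval 0.13 to 0.61), which is 1.30-fold. limma gave it an unadjusted p of 0.00849 and an adjusted p of 0.951, the 231st smallest p of the 27975. Within the slides the differences were 0.34, 0.54 and 0.25 for slides 1, 2 and 3, so each of the 3 pairs went the same way. With the slide as a block in limma, the unadjusted p was 0.0181 and the adjusted p 0.963.

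The contiguous Saa1 probe ran beside Saa3. It read 0.26, 0.53 and 0.42 in patDp/+ mice and 0.06, 0.26 and 0.33 in WT mice. The groups overlapped, with WT mouse 3 above patDp/+ mouse 1, and the means were 0.40 ± 0.13 in patDp/+ and 0.22 ± 0.14 in WT fat (SD, n = 3 each). The difference of 0.19 ± 0.11 (SE) had a limma adjusted p of 0.965. Within slides it was 0.20, 0.26 and 0.10, with the sign of Saa3 in all 3.

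The split Saa1 probe gave another picture of the same gene. Its values were -4.29, -5.18 and -6.38 in patDp/+ mice and -4.78, -5.41 and -5.29 in WT mice. The patDp/+ mice held both its highest and its lowest value, and the lowest, in patDp/+ mouse 3, was not well above background. The difference was -0.13 ± 0.51 (SE, limma adjusted p = 0.996), and within slides 0.49, 0.23 and -1.09.

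Saa2, the other serum amyloid A of the inflamed liver, followed the split Saa1 probe. It read -3.18, -4.21 and -5.07 in patDp/+ mice and -3.53, -4.24 and -4.19 in WT mice, again with patDp/+ mouse 1 highest and patDp/+ mouse 3 lowest, and was well above background on all 6 arrays. Its difference was -0.16 ± 0.48 (SE, limma adjusted p = 0.993), with 0.35, 0.04 and -0.88 within slides. Without patDp/+ mouse 3 the differences were 0.42 for the split Saa1 probe and 0.30 for Saa2. The arrays at the ends of this order also stood at the ends in background. Negative control spots had a mean net signal of 36.7 for patDp/+ mouse 1 and 29.0 for patDp/+ mouse 3, with 29.4 to 31.6 for the other mice. The array of patDp/+ mouse 1 had the most probes well above background (29509) and that of patDp/+ mouse 3 the fewest (26086). The part of this background in the Saa1 and Saa2 values was not tested.

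Saa4, the serum amyloid A made without a stimulus, was close to the detection limit. Its tested probe read -4.29, -5.28 and -4.90 in patDp/+ mice and -5.80, -5.08 and -5.73 in WT mice. It was well above background on only 3 arrays, those of patDp/+ mice 1 and 2 and of WT mouse 2, and among these 3 the WT value lay between the patDp/+ values. The difference was 0.71 ± 0.30 (SE, limma adjusted p = 0.963), with 1.51, -0.21 and 0.83 within slides. It was 0.44 without patDp/+ mouse 1 and 0.18 in the authors' deposited table. The second Saa4 probe was not well above background on any array and was not among the tested probes. In a fit with no filter on dim probes it had 1.18 ± 0.47 (SE, unadjusted p = 0.0473, limma adjusted p = 0.988), with neither group's signal well above background.

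**Figure D2:**
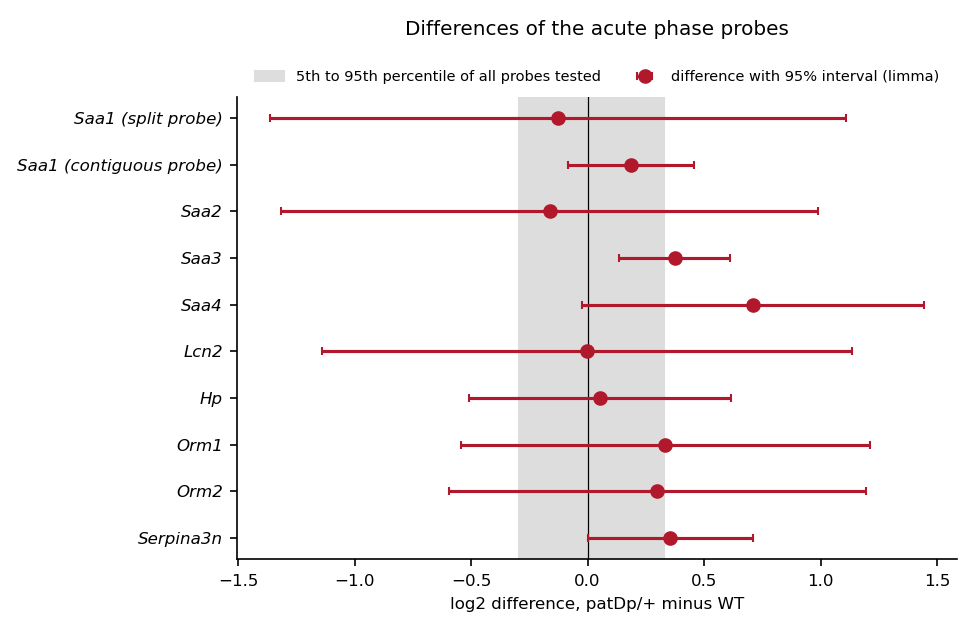
Points show the log2 difference patDp/+ minus WT of each tested acute phase probe with limma's 95% interval, and the grey band spans the 5th to the 95th percentile of all 27975 differences (-0.29 to 0.33). The intervals of Saa3 and Serpina3n lie above 0, while those of the split Saa1 probe, Saa2 and Lcn2 reach more than 0.9 to either side of it.

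Among the proteins that bind a ligand in plasma, Hp encodes haptoglobin, which captures free haemoglobin. Hp read 8.85, 8.83 and 8.23 in patDp/+ mice and 8.91, 8.25 and 8.60 in WT mice. The groups overlapped almost fully, and no spot was saturated. The difference was 0.05 ± 0.23 (SE, 95% interval -0.51 to 0.61, limma adjusted p = 0.996), and within slides it was -0.06, 0.58 and -0.36.

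Lcn2 encodes lipocalin 2, which binds bacterial siderophores and is made by adipocytes, macrophages and neutrophils. It read -2.27, -1.32 and -2.60 in patDp/+ mice, against -2.37, -2.61 and -1.20 in WT mice. In each group 1 mouse stood well above the other 2, patDp/+ mouse 2 and WT mouse 3. The difference was -0.0034 ± 0.47 (SE, 95% interval -1.14 to 1.13, limma adjusted p = 1), with 0.10, 1.30 and -1.41 within slides. The interval leaves room for a change of more than 2-fold in either direction.

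Orm1 and Orm2 encode orosomucoids, plasma carriers of lipids and drugs. Orm1 read 3.84, 3.37 and 4.39 in patDp/+ mice and 2.88, 4.003 and 3.71 in WT mice. Orm2 read 3.98, 3.53 and 4.52 in patDp/+ mice and 3.04, 4.25 and 3.84 in WT mice. For both genes patDp/+ mouse 3 was highest and WT mouse 1 lowest, and the groups overlapped. The difference was 0.33 ± 0.36 (SE) for Orm1 and 0.30 ± 0.37 (SE) for Orm2, with limma adjusted p of 0.974 and 0.981. Slide 2 went against the other slides, with -0.64 for Orm1 and -0.72 for Orm2, where slides 1 and 3 gave 0.96 and 0.68 for Orm1 and 0.93 and 0.68 for Orm2. Without WT mouse 1 the differences were 0.0087 for Orm1 and -0.03 for Orm2. Orm3, the third gene of the family in mice, read 0.70, 0.75 and 0.71 in patDp/+ mice and 0.91, 1.57 and 0.60 in WT mice, a difference of -0.31 ± 0.24 (SE, limma adjusted p = 0.966).

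Serpina3n, a mouse relative of human alpha-1-antichymotrypsin that inhibits serine proteases, read 3.68, 3.90 and 3.37 in patDp/+ mice, against 3.33, 3.19 and 3.37 in WT mice. Both patDp/+ mice 1 and 2 lay above every WT mouse, whereas patDp/+ mouse 3 and WT mouse 3 were level. The means were 3.65 ± 0.26 in patDp/+ and 3.30 ± 0.10 in WT fat (SD, n = 3 each). The difference of 0.36 ± 0.15 (SE, 95% interval 0.0013 to 0.71), or 1.28-fold, had an unadjusted p of 0.0494 and an adjusted p of 0.963 in limma. Within slides it was 0.36, 0.71 and -0.0023. With the slide as a block the unadjusted p was 0.0895. Without patDp/+ mouse 2 the difference was 0.23, and its unadjusted p was 0.00623 without patDp/+ mouse 3 but 0.072 to 0.141 without any 1 of the other mice.

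**Figure D3:**
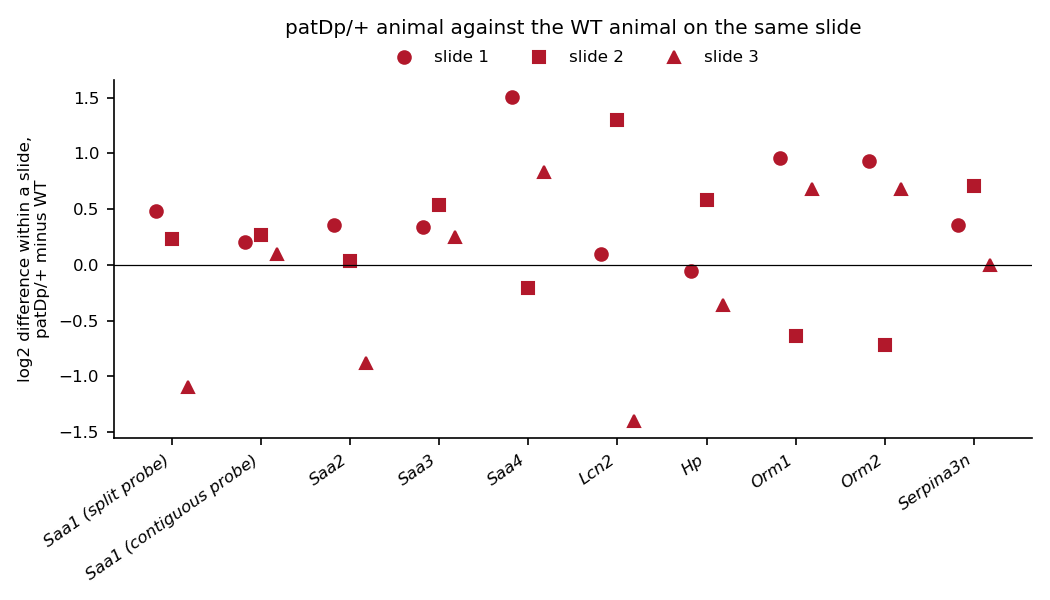
Each point is the log2 difference between the patDp/+ mouse and the WT mouse of the same slide, with marker shape for the slide. The Saa3 and contiguous Saa1 probes are above 0 on all 3 slides, Lcn2 runs between -1.41 and 1.30, and both Orm genes fall below 0 on slide 2 only.

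The members differed widely in how much they varied between mice of the same genotype. The pooled standard deviation within groups was 0.78 for the split Saa1 probe, 0.72 for Saa2 and 0.71 for Lcn2, where the median over all tested probes was 0.15. These values lay at percentiles 98.3, 97.9 and 97.9 of all tested probes. Orm2 at 0.56, Orm1 at 0.55, Saa4 at 0.45 and Hp at 0.34 stood at percentiles 96.0, 95.8, 93.4 and 87.3. Serpina3n was at 0.20, the contiguous Saa1 probe at 0.14 and Saa3 at 0.11, at percentiles 66.2, 44.6 and 32.9. The percentiles take no account of brightness. Processed intensities were only 11.6 to 51.4 for the split Saa1 probe, 28.8 to 111 for Saa2 and 15.9 to 51.4 for Saa4. How much of their spread comes from low signal and not from the mice was not tested. The 2 members past an unadjusted p of 0.05 were among the 3 that varied least. The error that limma sets a difference against is estimated in part from this spread, so a small spread in itself lowers the p.

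Across the 6 mice the acute phase genes did not form a single group. All 45 pairs of the 10 tested probes were compared with exact permutation tests over the 6 arrays (two-sided), adjusted over the 45. Orm1 and Orm2 had Pearson's r = 0.997 (exact permutation p = 0.00139, adjusted 0.0626) and Spearman's rho = 1.00 (p = 0.00278, adjusted 0.125). Without the 2 mice farthest from the median r was 0.988, and after centring each slide 0.998. How far the Orm1 and Orm2 probes share signal was not analysed. Each slide paired a patDp/+ mouse with a WT mouse. Here and below, the centred r therefore rests on the within-slide differences alone and leaves the genotype in. It is above 0 wherever the 2 probes differ in the same direction as each other on every slide. How high it is depends on how the sizes of their differences match across slides. The split Saa1 probe and Saa2 had r = 0.986 (exact permutation p = 0.00278, adjusted 0.0626) and rho = 0.943 (p = 0.0167, adjusted 0.25), with 0.953 without the 2 farthest mice and 0.988 after centring each slide. No pair passed 0.05 after adjustment, and these were the 2 closest to it.

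The contiguous Saa1 probe and Saa3, which share 1 listed Ensembl transcript, had r = 0.844 (exact permutation p = 0.0333, adjusted 0.35) and rho = 0.714 (p = 0.136, adjusted 0.556). The r of this pair was 0.679 without the 2 farthest mice. It was 0.992 after centring each slide, where both probes had differences above 0 on every slide. The split Saa1 probe shares the same listed transcript with Saa3, and that pair had r = -0.262 (exact permutation p = 0.649, adjusted 0.792). The split and the contiguous probe of Saa1 itself had r = -0.484 (exact permutation p = 0.299, adjusted 0.708) and rho = -0.543 (p = 0.297, adjusted 0.668), with -0.572 without the 2 farthest mice and 0.128 after centring each slide. The split Saa1 probe and Hp had r = 0.814 (exact permutation p = 0.0194, adjusted 0.291) and rho = 0.943 (p = 0.0167, adjusted 0.25), with 0.830 without the 2 farthest mice and 0.600 after centring each slide. Hp and Orm2 ran in opposite directions at r = -0.843 (exact permutation p = 0.0389, adjusted 0.35) and rho = -0.829 (p = 0.0583, adjusted 0.375), and r was -0.539 without the 2 farthest mice and -0.768 after centring each slide.

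**Figure D4:**
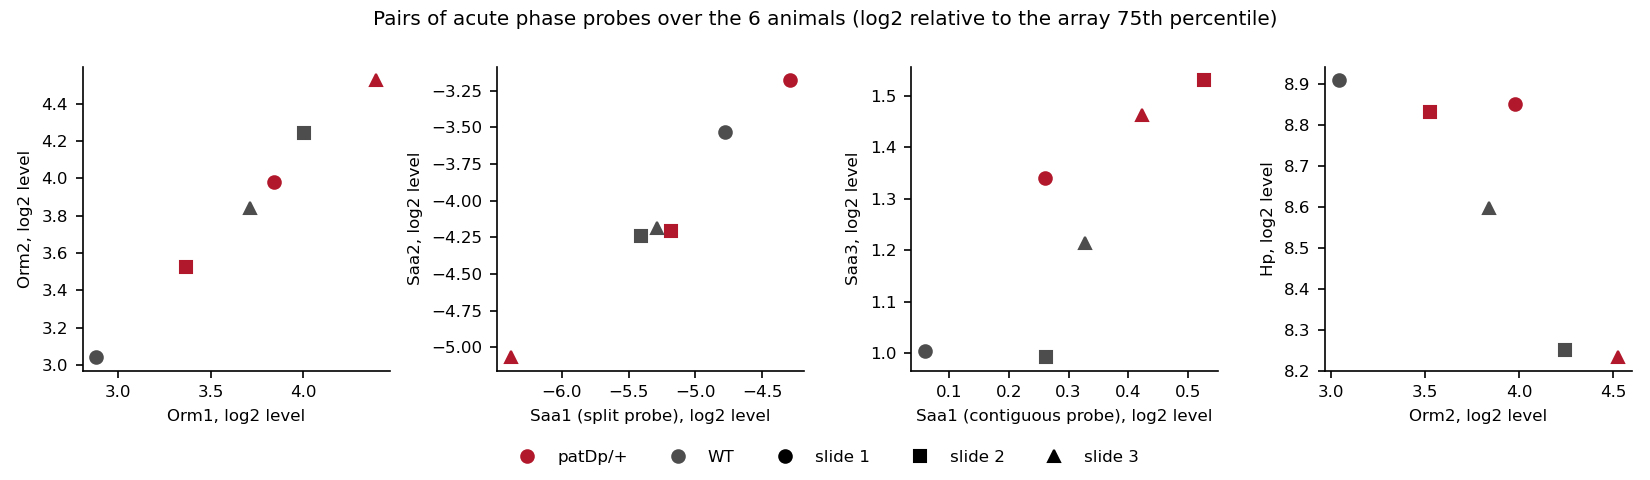
Each panel sets 2 acute phase probes against each other, as log2 levels relative to the array's 75th percentile, with 1 point per mouse, red for patDp/+, grey for WT and marker shape for the slide. Orm1 and Orm2 lie on a line (r = 0.997), as do the split Saa1 probe and Saa2 (r = 0.986), while the contiguous Saa1 probe against Saa3 (r = 0.844) and Orm2 against Hp (r = -0.843) scatter more.

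Among 13770 other measured genes with a symbol, those whose 6 values were most like those of Saa3 were C1galt1 (r = 0.990), Vps26c (0.988), Sobp (0.983), Nek2 (0.983) and Abcg1 (0.979). The differences of these 5 genes were 0.18 ± 0.08, 0.13 ± 0.07, 0.15 ± 0.07, 0.32 ± 0.11 and 0.29 ± 0.09 (SE). The genes were chosen over all 6 mice with the genotype left in. Their differences therefore follow from the separate groups of Saa3 and are no further evidence. In all, 137 genes had r over 0.9 with Saa3. With 6 arrays this is a description of the likeness and not a test.

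Promoter sequences were available from RefSeq (GRCm38.p6) for 7 of the 9 members, all but Hp and Orm1. Over the 250 bases before the start, Saa1 and Saa2 shared 238 of 249 aligned bases (95.6%). Saa1 shared 56.0% with Saa3 and 55.3% with Saa4, and Orm2 shared 89.0% with Orm3. The pair Saa1 and Saa2 is shown because the split Saa1 probe and Saa2 varied together, as bases 200 to 51 before each start (chr7:46743031-46743180, minus strand, and chr7:46751633-46751782, plus strand), with capitals for bases that differ from the other or have no partner in it.
Saa1 promoter: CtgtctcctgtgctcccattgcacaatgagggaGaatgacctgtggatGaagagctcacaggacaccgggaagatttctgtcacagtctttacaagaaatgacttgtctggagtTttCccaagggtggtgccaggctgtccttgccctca
Saa2 promoter: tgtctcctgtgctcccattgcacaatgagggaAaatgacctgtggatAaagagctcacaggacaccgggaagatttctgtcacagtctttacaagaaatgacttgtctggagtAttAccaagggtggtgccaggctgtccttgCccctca

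The Saa3 promoter is shown as the 120 bases before its start (chr7:46715677-46715796, minus strand), with capitals for a match to the C/EBP motif.
Saa3 promoter: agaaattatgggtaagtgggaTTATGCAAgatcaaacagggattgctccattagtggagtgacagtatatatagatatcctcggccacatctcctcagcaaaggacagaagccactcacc

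Over both strands of these 250 bases, the C/EBP motif TTGCNNAA occurred in 6 of the 7 member promoters, all but that of Serpina3n, and in 9.56% of the 32851 promoters of the table. For the kappa B motif, which NF-kB binds, only 1 pattern of 10 letters was searched. That pattern occurred in 1 of the 7, that of Serpina3n, and in 4.65% of all promoters. Kappa B sites with other letters were not counted, so the count does not show that the remaining member promoters lack such a site. The STAT motif TTCNNNGAA occurred in 0 of the 7 and in 7.02% of all promoters. A match describes letters in this window only. The members with the C/EBP motif included Saa3, the member with separate groups, and Saa2 and Lcn2, whose groups overlapped.

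The rest of the acute phase pathway was read from lists of 106 genes by role, of which 86 were measured, each by the tested probe of highest mean level. limma called 0 of them after adjustment. At an unadjusted p under 0.05, 6 of the 86 were higher in patDp/+ fat and 0 were lower, against 2.67% of all genes higher and 2.89% lower. The difference was above 0 for 66 of the 86, against 47.3% of all genes, and every patDp/+ array lay above every WT array for 12 of them, against 5.23% of all genes. The median difference was 0.10, against -0.01 over all genes. On slide 3 the list medians lay between -0.03 and 0.11, and the receptor shift was mostly that of slide 2. The median difference within slides 1, 2 and 3 was 0.58, 0.39 and 0.11 for the inducing cytokines, 0.04, 0.36 and 0.01 for the receptors, 0.12, 0.08 and 0.0014 for the signalling genes, and 0.02, 0.20 and -0.02 for the other acute phase genes. For the genes that decline in the acute phase it was 0.46, -0.23 and -0.03, and for the receptors and handlers of the acute phase proteins -0.00081, -0.0051 and 0.09.

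All 6 measured genes for inducing cytokines were above 0, with a median of 0.36. Il11, an interleukin 6 family cytokine gene, averaged -3.40 ± 0.01 in patDp/+ and -3.68 ± 0.07 in WT fat (SD, n = 3 each), with a difference of 0.28 ± 0.08 (SE, unadjusted p = 0.00927, limma adjusted p = 0.951). The main inducers had larger differences and wider errors, with 0.85 ± 0.46 for Il1b, 0.53 ± 0.36 for Il6 and 0.43 ± 0.32 for Tnf (SE), and limma adjusted p of 0.965 or more. Their levels were low, with patDp/+ means of -3.06, -4.33 and -3.81. Within slides 1, 2 and 3, Il6 had 1.13, 0.37 and 0.10, and Tnf 0.87, 0.46 and -0.03. For Il1b these were 1.05, 0.43 and 1.09. The array of patDp/+ mouse 1 had the highest background, and its part in these values was not tested. Il18 had 0.15 ± 0.10. Il1a, Osm, Il22 and Il17a were too dim to be tested.

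All 12 genes of the cytokine and endotoxin receptors were above 0, with a median of 0.17, and 2 had an unadjusted p under 0.05. Lbp, the gene of the lipopolysaccharide-binding protein, which is itself an acute phase protein, averaged 3.52 ± 0.27 in patDp/+ and 3.05 ± 0.13 in WT fat (SD, n = 3 each). Its difference was 0.47 ± 0.15 (SE, unadjusted p = 0.0205), with 0.82, 0.47 and 0.11 within slides. Il6ra, the gene of the interleukin 6 receptor, averaged -3.04 ± 0.04 in patDp/+ and -3.37 ± 0.05 in WT fat, a difference of 0.33 ± 0.07 (SE, unadjusted p = 0.00385). Il1r1 and Osmr, receptor genes for interleukin 1 and oncostatin M, had 0.20 ± 0.10 and 0.23 ± 0.13 (SE). The limma adjusted p of both Lbp and Il6ra was 0.951.

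Of the 22 measured signalling and transcription factor genes, 16 were above 0, with a median of 0.09 and 1 at an unadjusted p under 0.05. That gene was Socs3, the feedback inhibitor of interleukin 6 signalling, which averaged 1.57 ± 0.36 in patDp/+ and 0.95 ± 0.12 in WT fat (SD, n = 3 each). Its difference was 0.62 ± 0.19 (SE, unadjusted p = 0.015, limma adjusted p = 0.951), with 0.42, 1.00 and 0.44 within slides. The transcription factor genes upstream of the members had smaller values, with 0.15 ± 0.15 for Stat3, 0.20 ± 0.24 for Cebpd and 0.09 ± 0.11 for Cebpb (SE). The NF-kB subunit genes Nfkb2 and Relb had 0.22 ± 0.10 and 0.15 ± 0.07, and the kinase gene Irak4 0.21 ± 0.10 (SE).

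Of the 27 other acute phase genes measured, 19 were above 0, with a median of 0.17. Only Serpina1b, an alpha-1-antitrypsin gene of the mouse, had an unadjusted p under 0.05, with a mean of -4.51 ± 0.12 in patDp/+ and -4.84 ± 0.13 in WT fat (SD, n = 3 each). Its difference was 0.33 ± 0.11 (SE, unadjusted p = 0.0217, limma adjusted p = 0.951). It belongs to a family of near-identical genes whose signal one probe may share. Ptx3, a pentraxin gene of the innate response, had 0.64 ± 0.27, Cd163, the haptoglobin-haemoglobin receptor gene, 0.27 ± 0.12 and the zinc transporter gene Slc39a14 0.19 ± 0.09 (SE). The classical liver genes Crp, Apcs, Fga, Fgb, Fgg and Hamp were too dim to be tested, as were Pla2g2a, Mbl1 and Mbl2.

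The products of another list decline in the acute phase. Of its 5 measured genes, 4 were above 0 and 1 below, with a median of 0.09 and 0 at an unadjusted p under 0.05 in limma. Trf, the transferrin gene, had -0.09 ± 0.08, Alb, the albumin gene, 0.09 ± 0.16, Ahsg 0.16 ± 0.16 and Apoa2 0.20 ± 0.20 (SE). Ttr, Apoa1 and Serpina6 were too dim to be tested.

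Of 15 genes for receptors and downstream handlers of the acute phase proteins, 10 were above 0 and 5 below, with a median of 0.04. Hmox1, whose enzyme breaks down the haem delivered with haptoglobin, averaged 2.50 ± 0.15 in patDp/+ and 2.12 ± 0.14 in WT fat (SD, n = 3 each), a difference of 0.38 ± 0.12 (SE, unadjusted p = 0.0158, limma adjusted p = 0.951). Scarb1, a receptor gene for high-density lipoprotein and serum amyloid A, had -0.30 ± 0.13 and Tlr2 0.19 ± 0.10 (SE).

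**Figure D5:**
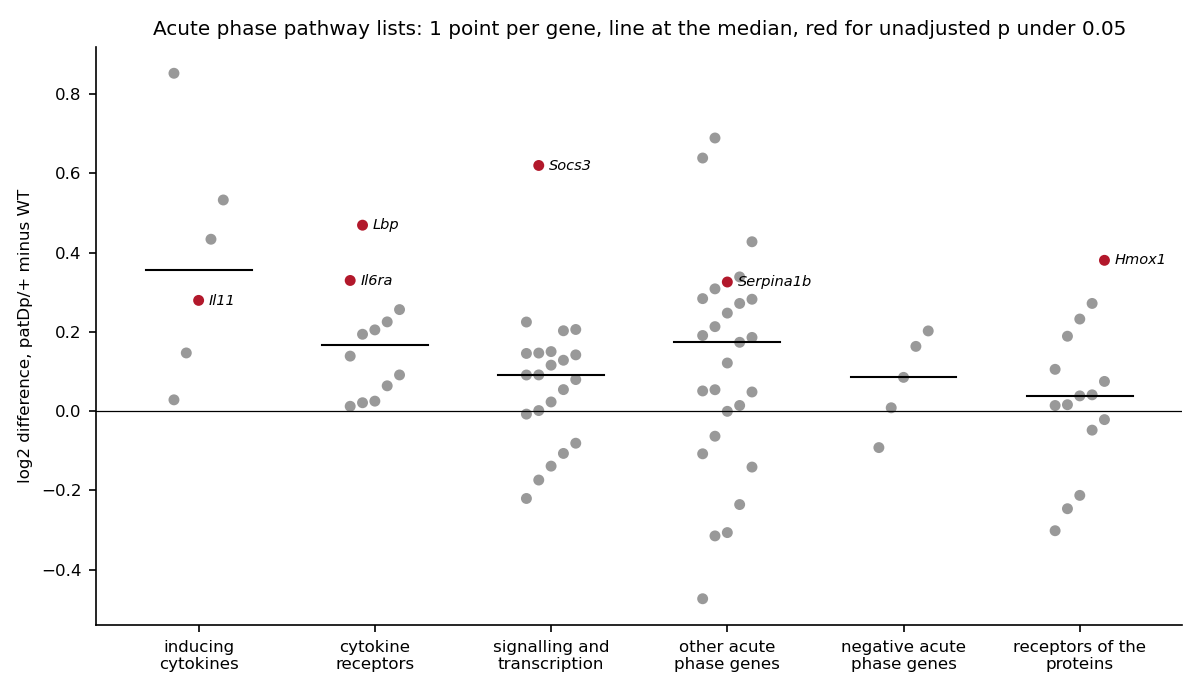
Each point is the log2 difference patDp/+ minus WT of 1 gene of the pathway, by role, with a line at each list's median and red for an unadjusted p under 0.05. The 6 red genes (Il11, Lbp, Il6ra, Socs3, Serpina1b and Hmox1) all lie above 0, and the list medians run between 0.04 and 0.36.

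The genotype labels were checked on the duplicated interval, where 7 of 8 listed genes were measured and all 7 had every patDp/+ array above every WT array. Snrpn had a difference of 1.19 ± 0.13, Ndn of 1.08 ± 0.13 and Ube3a of 0.50 ± 0.07 (SE). The tissue label was checked on 12 adipocyte genes, all well above background on all 6 arrays, with summed linear levels of 2619 to 2793 in patDp/+ and 2657 to 3172 in WT fat. Of these 12, 3 were above 0 (against 47.3% of all genes) and 9 below, with a median difference of -0.09. All array pairs correlated at 0.987 or more over the tested probes, which are not independent replicates.

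Markers of other cells that make acute phase proteins are given beside the members. Over all genes, 47.3% were above 0 and the median difference was -0.01. In limma, 2.67% of all genes had an unadjusted p under 0.05 as higher and 2.89% as lower in patDp/+. All 14 macrophage markers were measured and above 0, with 1 at an unadjusted p under 0.05 and a median of 0.27. The macrophage sum was 349, 309 and 273 in patDp/+ mice 1, 2 and 3, against 282, 257 and 276 in WT mice 1, 2 and 3. This sum mostly follows Lyz2, at log2 levels of 7.49 to 7.90, with C1qc next at 4.42 to 4.86. The 2 highest sums were those of patDp/+ mice 1 and 2, and WT mouse 2 was lowest in this sum and in Saa3, while Saa3 was highest in patDp/+ mouse 2. In patDp/+ mouse 3 Saa3 read 1.46, above the 1.34 of patDp/+ mouse 1, but its macrophage sum lay below those of WT mice 1 and 3. The median macrophage difference within slides 1, 2 and 3 was 0.37, 0.41 and 0.05. Of 14 neutrophil markers on the array, 10 were measured, with 7 above 0, a median of 0.13, 1 at an unadjusted p under 0.05 and sums of 3.14 to 3.90 in patDp/+ and 2.42 to 4.85 in WT fat, while Ltf, Ngp, Mmp8 and Stfa2 were too dim. Lcn2 was highest in WT mouse 3, and the neutrophil sum in WT mouse 1. Of 12 hepatocyte markers 8 were measured, with 5 above 0, a median of 0.07 and 0 at an unadjusted p under 0.05. Their sums of 76.4 to 127 in patDp/+ and 113 to 139 in WT fat were 99.3% to 99.7% Cyp2e1, and the other 7 together summed to 0.493 to 0.555 in patDp/+ and 0.445 to 0.551 in WT fat. The liver-defining genes Ttr, Fgb, Cps1 and Apoh were too dim. The 12 mesothelial markers summed to 60.4 to 79.2 in patDp/+ and 53.7 to 68.1 in WT fat, with 11 above 0, a median of 0.08 and 0 at an unadjusted p under 0.05. The 12 progenitor markers summed to 421 to 503 in patDp/+ and 454 to 515 in WT fat, with 10 above 0, a median of 0.13 and 3 at an unadjusted p under 0.05, all higher in patDp/+. Of 12 epididymal epithelium markers, 3 were measured, 1 of them lower in patDp/+ at an unadjusted p under 0.05, with sums of 0.0512 to 0.105 in patDp/+ and 0.105 to 0.170 in WT fat. The part of these cells in the acute phase values was not tested.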

How the data were processed

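Per the file headers, arrays were read with Feature Extraction 9.5.1.1, and the deposited processed intensity is background-subtracted and detrended within an array, but not scaled between arrays. Agilent Feature Extraction 9.5 and limma 3.18.2 stand in the submitters' processing notes. The authors also deposited a table of quantile-normalized log2 values (column medians 7.63), which served as an alternative. The sources used here do not give its background correction. Each of its columns correlated best with its own array after centring probes (0.781 to 0.873, against at most 0.0960 for another).

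Log2 processed intensity minus each array's 75th percentile was taken after dropping spots flagged as outliers and averaging replicate spots. Probes well above background on at least 3 of 6 arrays were kept, and groups compared with limma 3.58.1 in R 4.3.3 over all kept probes (two-sided, Benjamini-Hochberg, 0.05), without covariates. The fit was tested on simulated data.

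The design text speaks of separate mice. The p-values therefore set a difference against the spread between animals, array noise included, which limma moderates over all tested probes. The number of arrays limits the precision. Titles, descriptions and genotype labels gave the groups. The source name calls every sample wild type and was not used.

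Members and lists were chosen with earlier results of these data known. The naming rule took all member probes, up to 4 genes of smallest p per pathway list, Il6, Il1b, Tnf, Stat3, Socs3, Cebpb and Cebpd, the 5 genes most like Saa3, and Snrpn, Ndn and Ube3a. Orm3 was added after its values were seen, as the remaining orosomucoid gene. Deviations of same-numbered mice from their group means correlated at 0.12, -0.10 and -0.03 for mice 1, 2 and 3. Symbols were matched to RefSeq (GRCm38.p6) for 27050 of the 41174 probes, dim ones included. Promoters and motifs were read from the RefSeq promoter table of that build.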

Additional observations from a re-analysis of the deposited data

How the results depend on the processing

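No acute phase probe and no other probe was called in limma under any of the alternatives run. The 2 acute phase probes at an unadjusted p under 0.05 became 0 with normexp background correction, 1 with quantile normalization, 1 with the mean of the kept probes of each gene, 1 with the slide as a block, which is also the replicate block (1), and 3 with the deposited table. With no filter on dim probes there were again 2, Saa3 and the second Saa4 probe, while Serpina3n had 0.0678. They numbered 1 to 2 when each mouse was left out in turn. The median difference of the members, 0.24, was 0.11 with array weights and 0.087 to 0.38 when each mouse was left out, lowest without WT mouse 1 and highest without WT mouse 3. Saa3 kept its direction in all 15 alternatives, at 0.30 to 0.45, with an unadjusted p under 0.05 in 14 of them (0.0885 with normexp) and adjusted p of 0.499 or more. Serpina3n, at 0.23 to 0.50, had an unadjusted p under 0.05 in 6 of 15. Orm1, Saa4 and the contiguous Saa1 probe kept their direction, Orm1 at 0.0087 to 0.58, Saa4 at 0.18 to 0.94 and the contiguous Saa1 probe at 0.11 to 0.26.

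Members near 0 turned, and so did Orm2, at 0.30 in the main fit, when WT mouse 1 was left out. With normexp Saa2 was 0.57, Hp -0.12, the split Saa1 probe 0.73 and Lcn2 0.29. With the deposited table the split Saa1 probe was 0.0027 and Lcn2 0.0075, and with array weights Saa2 was 0.022 and the split Saa1 probe 0.083. When each mouse was left out, the ranges were -0.62 to 0.42 for the split Saa1 probe, -0.65 to 0.30 for Saa2, -0.38 to 0.43 for Lcn2, -0.11 to 0.26 for Hp and -0.034 to 0.57 for Orm2. The causes were not tested. Same-numbered mice shared a slide, but their deviations did not all correlate over 0.1, so the block is named in the results as the slide, which gives the same fit as the replicate block.

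With 3 mice per group, members that vary as widely as Lcn2 have intervals of more than 1 unit to either side. Of the tested probes, Saa4 was well above background on 3 of 6 arrays and the split Saa1 probe on 5. How much the Saa paralogs, or Orm1 and Orm2, share signal was not analysed here.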
